A study of Homo sapiens with 60 samples.

Results

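The genes described here are the 77 that encode the proteins of the cytosolic ribosome, out of 60675 genes in the table of expected counts. They were chosen by name and level: protein-coding genes with an RPL or RPS symbol of the canonical form, the P-stalk genes RPLP0, RPLP1 and RPLP2, and RPSA, each with a mean of at least 50 CPM (counts relative to the library's total) over the 60 labelled libraries. All 77 genes with such a symbol passed that limit, 31 of the small subunit and 46 of the large one. All 77 also passed the filter on low counts and were tested. The rule used names and mean level, not a difference between groups.

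RNA was sequenced from HT29, an established human colorectal adenocarcinoma line, after 24 h with a water extract or with vehicle. Single-herb extracts came from Citri Unshius Pericarpium (citrus), Cimicifugae Rhizoma (cimicifuga), Bupleuri Radix (bupleurum) and Aconiti Lateralis Radix Preparata (aconite), and mixed ones were the formulas Yijung-tang, Banhasasim-tang and Bojungikgi-tang. Each was given at 20, 100 and 500 µg/mL, called low, medium and high here. Of the 7 extracts, 6 had 3 libraries at each dose. The vehicle, dimethyl sulfoxide (DMSO), had 3 libraries. Bojungikgi-tang had 1 library at each dose and so no test. The labels give the vehicle as 0.1% DMSO, whereas the series' design text names 2%. The same text sets lower doses for extracts with an IC20 under 500 µg/mL, but the labels name 20, 100 and 500 µg/mL throughout. The numbering of the libraries puts citrus with cimicifuga, bupleurum with aconite, Yijung-tang with Banhasasim-tang, and Bojungikgi-tang and the vehicle each on their own. Extract and library set therefore cannot be told apart against vehicle. High against low dose of 1 extract was compared within a set. All cells were of 1 line. Replicates are not said to come from separate cultures, and a p-value then speaks of the spread among these libraries, which may be technical.

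Each ribosomal protein is needed in a single copy per ribosome, apart from the acidic stalk proteins, and cells make them in step with ribosomal RNA. Many of their mRNAs start with an unbroken run of pyrimidines directly at the cap, the terminal oligopyrimidine (TOP) motif. Through this motif LARP1 and the mTOR kinase hold back or release their translation when nutrients or stress change, so protein output can change with no change in mRNA. The present data measure mRNA only.

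The starts of the members that the results turn on are shown because they carry, or lack, that pyrimidine run. Each is given from 20 bases before the annotated start to 10 bases after it, 5′ to 3′, on the gene's strand, from RefSeq on GRCh38.p14. Capitals mark the unbroken run of C and T that begins at the start itself, as far as the 10 bases shown. The full runs of RPLP1, RPLP2, RPL26, RPS24 and RPS19 were 11, 13, 12, 14 and 11 bases. RPS19 has another annotated start, not shown, that lacks the run.
RPLP0 (chr12:120201102-120201131, minus strand): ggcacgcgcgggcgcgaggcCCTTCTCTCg
RPLP1 (chr15:69452798-69452827, plus strand): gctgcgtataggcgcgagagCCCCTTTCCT
RPLP2 (chr11:809947-809976, plus strand): gcctcttgcgtcggcgccttCCTTTTCCTC
RPL26 (chr17:8383184-8383213, minus strand): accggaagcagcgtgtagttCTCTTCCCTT
RPS24 (chr10:78033843-78033872, plus strand): ttggccggcgaatcgtggttCTCTTTTCCT
RPL22 (chr1:6199586-6199615, minus strand): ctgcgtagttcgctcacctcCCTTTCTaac
RPL14 (chr3:40457319-40457348, plus strand): gggttgggcgggtcttcttcCTTCTCgcct
RPS19 (chr19:41860235-41860264, plus strand): gcccgggaaaccccgtcgttCCCTTTCCCC
RPL4 (chr15:66504846-66504875, minus strand): acatatacagcgggagtggtaagcacttcc
RPL27 (chr17:42998399-42998428, plus strand): cctcaccggggtgaaaggttagcggaagtg
RPS29 (chr14:49598701-49598730, minus strand): ttttcccccgagcgcgcagctggcagcggt

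A start was scored as carrying the run when its first base was C and at least 5 pyrimidines followed one another from there. Of the 62 members with a start in the RefSeq table used, 46 (74.2%) had it in at least 1 annotated start, against 756 of 11103 other tested genes (6.81%). RPL4, RPL27 and RPS29 are among the 16 without it, as are RPL3, RPL6, RPL9 and RPS7. The hexamer CCGGAA, searched on both strands in the window from 250 bases before the start to 50 after it, occurred in 35 of the 62 members (56.5%), against 33.8% of the other tested genes. A match or its absence describes these letters at an annotated start and not the cap that HT29 cells use.

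The 77 genes were abundant in every library. Median CPM over members, scaled by the trimmed mean of M values (TMM), was 622.6. The highest mean CPM belonged to RPL13A (2329), RPL4 (2025) and RPS2 (1946), and the lowest to RPS29 (63.2), RPL36 (175) and RPS28 (186). RPS29 was also the member nearest the 50 CPM limit, and no gene with such a symbol lay below it. Per kilobase of transcript RPLP1 was highest at 2487 CPM per kb, followed by RPL13A at 2044, RPS2 at 2039 and RPS16 at 2004. RPS29 was lowest at 93.3 CPM per kb, before RPS28 at 140 and RPL32 at 213. The length used was the median over a gene's basic protein-coding transcripts in GENCODE 29, whether or not HT29 cells express them. It was 677 bases for RPS29, 1326 for RPS28 and 1734 for RPL32, against a median of 750.5 over the members. Levels per kilobase therefore compare only roughly between genes. These genes have many processed pseudogenes, and the authors' estimation divided reads that fit both, so the level of a single member is uncertain by the reads of its copies. The summed level of ribosomal protein pseudogenes was 533 to 734 CPM in 57 of the libraries.

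Libraries held 10352646 to 40054980 expected counts (median 23833279). The epithelial markers KRT8 (6059 CPM), KRT18 (3410 CPM), EPCAM (522 CPM) and VIL1 (177 CPM) were present. PTPRC, CD3E, COL1A2, COL3A1, DCN and VWF, which define leukocytes, fibroblasts and endothelium, averaged at most 0.033 CPM. LYZ averaged 1682 CPM. In the members' share of all counts, aconite high replicate 2, Banhasasim-tang high replicate 2 and vehicle replicate 1 stood apart from the other 57 libraries. That share was 7.42% in aconite high 2, 7.85% in Banhasasim-tang high 2 and 6.78% in vehicle 1, against 4.56 to 6.02% (median 5.26%) in the other 57.

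Within their own groups the replicates of these libraries were far lower. The other aconite high libraries had 4.56 and 4.96%, the other Banhasasim-tang high libraries 5.32 and 5.27%, and the other vehicle libraries 5.74 and 5.46%. The same 3 libraries also stood highest when each member was given equal weight. On the scale of log2(CPM + 1) minus the mean of the 3 vehicle libraries, called the deviation here, the median member stood at 0.55 in aconite high 2, 0.43 in Banhasasim-tang high 2 and 0.22 in vehicle 1. It was −0.27 and −0.16 in the other aconite high libraries, −0.20 in both other Banhasasim-tang high libraries, and −0.08 and −0.14 in the other vehicle libraries. In aconite high 2, 67 of 77 members exceeded all 3 vehicle libraries and 0 lay below them. In Banhasasim-tang high 2, 74 exceeded them and 0 lay below. All 77 members were higher in vehicle 1 than in vehicle 2 and vehicle 3.

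**Figure D1:**
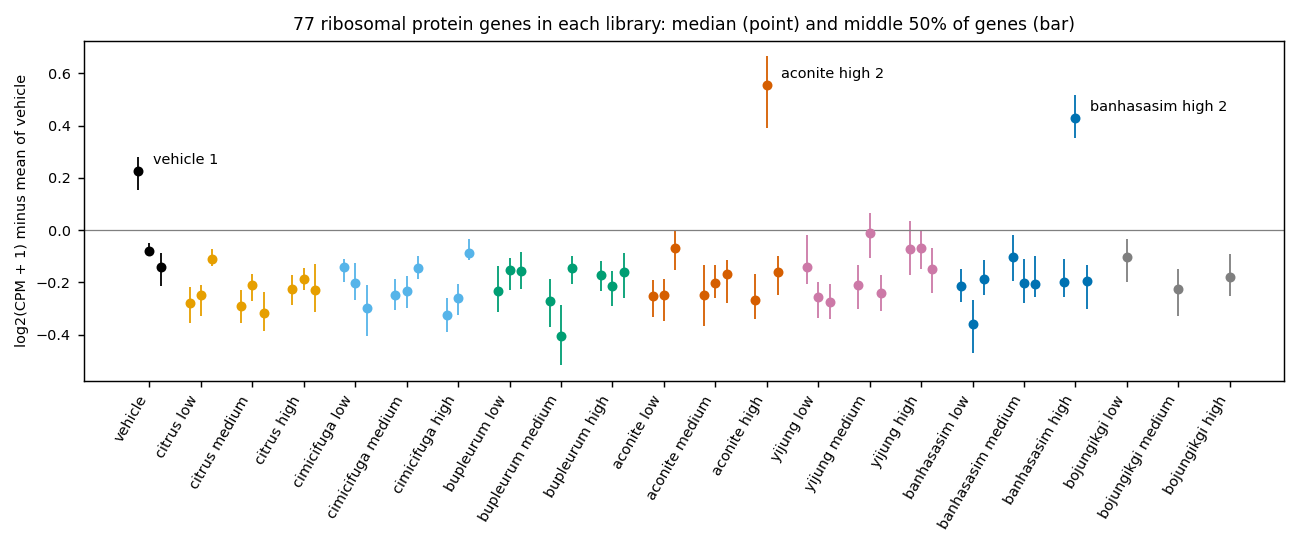
Median (point) and middle 50% (bar) of the deviation of the 77 members, log2(CPM + 1) minus the vehicle mean, in each of the 60 libraries, with vehicle at the left and doses low to high within an extract. Aconite high 2 at 0.55, Banhasasim-tang high 2 at 0.43 and vehicle 1 at 0.22 lie above the other 57 libraries, which span −0.40 to −0.01.

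The members did not move by equal amounts in these libraries. In aconite high 2 the largest deviations were those of RPS29 (1.04), RPL9 (1.01), RPS3A (0.87) and RPL17 (0.87), and the smallest those of RPS28 (−0.15), RPS2 (0.07), RPL28 (0.09) and RPLP2 (0.09). In Banhasasim-tang high 2 the largest were RPL36 (0.70) and RPL38 (0.66), and RPLP1 (0.09) was the smallest. RPLP1 and RPLP2 together form the flexible stalk that recruits elongation factors.

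Genes outside the ribosome moved in the same 3 libraries, and their part in the members' values was not tested. For 36 short mRNAs of the respiratory chain the median deviation was 0.43 in aconite high 2, 0.50 in Banhasasim-tang high 2 and 0.25 in vehicle 1, against −0.47 to 0.04 in the other 57 libraries. For 33 other short mRNAs it was 0.42, 0.53 and 0.21 in the same order, against −0.41 to −0.04. For 25 genes chosen for long transcripts it was −0.70, −0.88 and −0.22, against 0.02 to 0.30. The median lengths of the respiratory, other short and long lists were 655.5, 758 and 8823 bases. Their ranges overlapped, at 323 to 2154, 422 to 3815 and 1024 to 20003 bases. Across all tested genes that are not members, the Spearman correlation of deviation with transcript length was −0.30 in aconite high 2, −0.44 in Banhasasim-tang high 2 and −0.44 in vehicle 1, against 0.09 to 0.39 in the other 57; genes in 1 library are not independent and no p is given. The 503 non-members within the members' middle range of length stood at 0.34, 0.35 and 0.13 in those 3 libraries. The pseudogene sum was 961, 836 and 716 CPM. Aconite high 2 also had 15.8% of its counts on mitochondrial genes, within the 7.41 to 16.6% of the other 57.

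**Figure D2:**
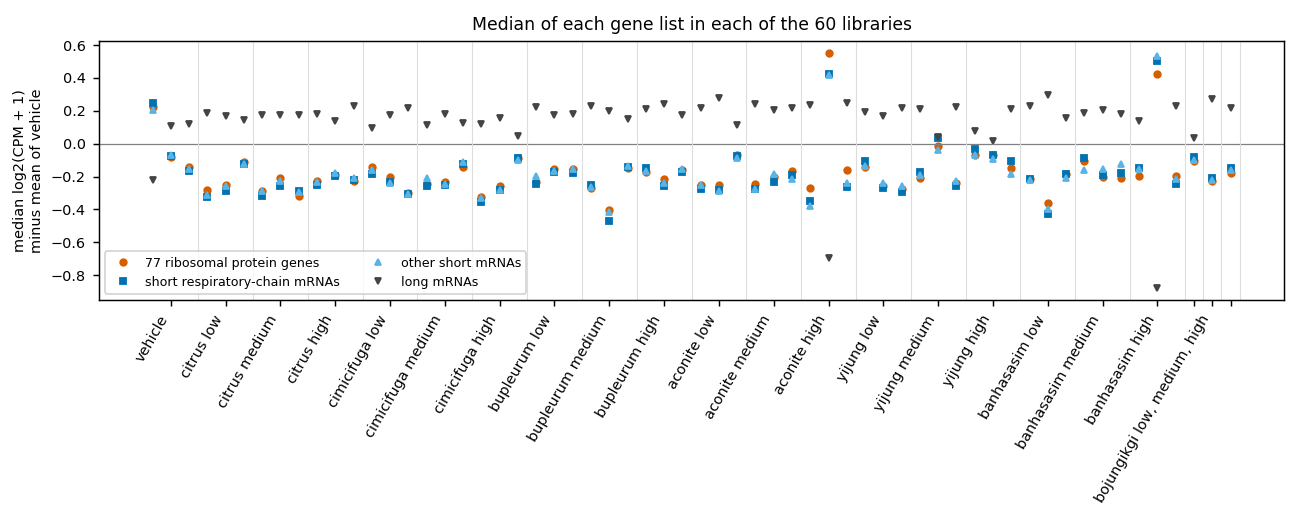
Median deviation (log2, vertical axis) of the members and of the lists of short and long mRNAs in each of the 60 libraries, with vehicle at the left. The members and both short lists stand high in aconite high 2, Banhasasim-tang high 2 and vehicle 1, where the long list lies at −0.70, −0.88 and −0.22.

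Outside those 3 libraries the members sat slightly below the vehicle mean in nearly every treated library. The median deviation was below 0 in 55 of the 57 extract libraries and ran from −0.40 to −0.01 (median −0.21) in the 55 without aconite high 2 and Banhasasim-tang high 2. The lowest were bupleurum medium 2 at −0.40 and Banhasasim-tang low 2 at −0.36, where the members took 4.74 and 4.79% of counts. In 44 of the 57 extract libraries the share was lower than in both vehicle 2 and vehicle 3. In bulk RNA fewer cells of a kind and less RNA per cell cannot be told apart.

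**Figure D3:**
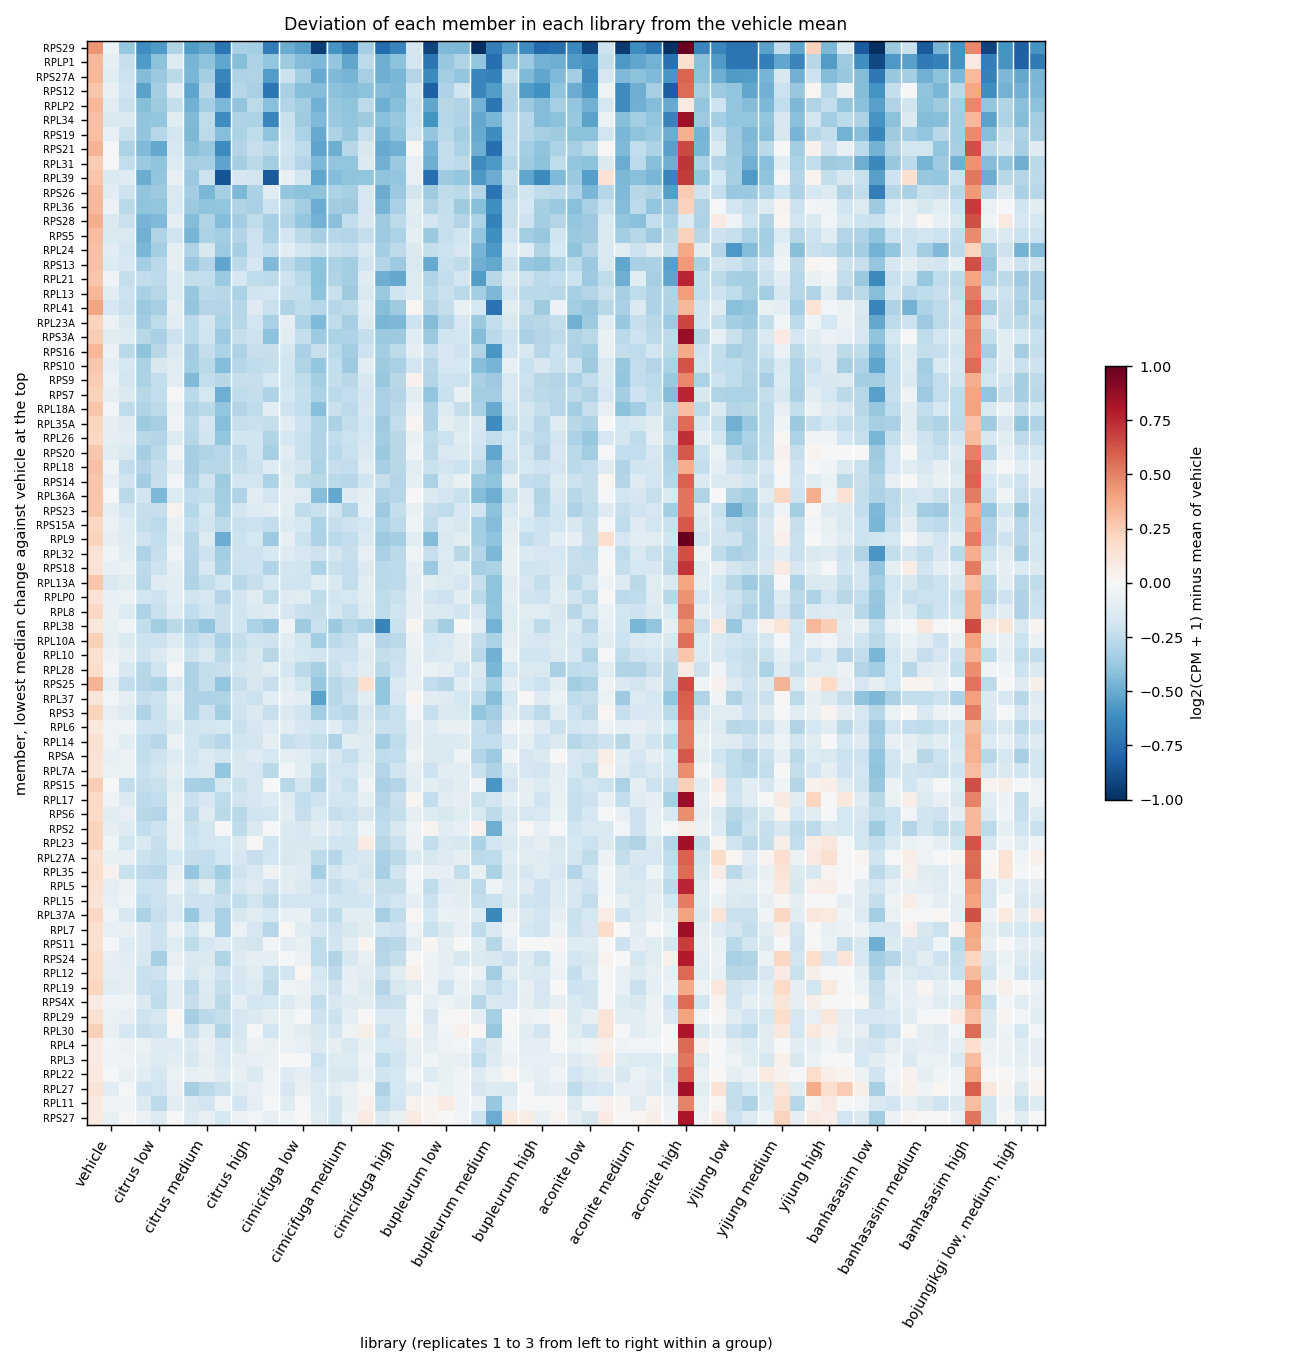
Deviation of 75 of the 77 members (rows; log2 CPM minus the vehicle mean, colour) in each of the 60 libraries (columns, vehicle at the left). Aconite high 2, Banhasasim-tang high 2 and vehicle 1 appear as columns of high values over nearly all rows.

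Set against vehicle, each extract at each dose was compared by edgeR's quasi-likelihood test in a model of all 57 replicated libraries, with Benjamini-Hochberg adjustment over 16485 genes and a call at an adjusted p under 0.05. Few members passed in any comparison, although most had negative log2 fold changes. The 18 comparisons share the same 3 vehicle libraries, so a common direction among them is not repeated evidence.

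For citrus, the median log2 fold change of the 77 members was −0.21 at the low, −0.29 at the medium and −0.23 at the high dose, and all 77 were negative at each dose. Over all genes tested the median was between −0.0068 and 0.0097 in each of the 27 comparisons made. No member passed, and the percentages of all genes called were 0.00607 at the low, 0 at the medium and 0.0303 at the high dose; at an unadjusted p under 0.05 there were 12, 46 and 19 members, against 8.73, 9.61 and 8.57% of all genes. At the medium dose all 3 libraries lay below all 3 vehicle libraries for 63 of the 77 members, against 10.3% of all genes. For 18 members at the low and 45 at the high dose the same held (background 9.97 and 9.74%). Non-members of like length had a median of −0.16 in that comparison. With no filter on low counts the same model called 46 members lower at the citrus medium dose, where it called 1.43% of all genes. That share is over every gene with any count, many of them low, and cannot be set beside the shares over 16485 genes.

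Cimicifuga gave medians of −0.22 at the low, −0.21 at the medium and −0.22 at the high dose, again with all 77 negative. No member was called (background 0, 0.00607 and 1.28% of genes), and 18, 11 and 15 members had an unadjusted p under 0.05, against 8.26, 6.31 and 11.5% of all genes. The 3 libraries of a dose lay below all vehicle libraries for 34, 36 and 16 members (background 8.73, 9.15 and 10.2%). Bupleurum gave −0.19, −0.27 and −0.19 at the low, medium and high dose, with 75, 77 and 75 members negative. Again no member was called, where the shares of all genes called were 0.776, 0.376 and 1.48%, and 11, 37 and 16 members had an unadjusted p under 0.05, against 11, 17.2 and 14% of all genes. Below all vehicle libraries lay 32, 34 and 34 members (background 10.3, 8.51 and 12.8%). DESeq2 called 2 members at the bupleurum medium dose (2.38% of all genes), and 0 in the other comparisons of these 3 extracts with vehicle.

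For aconite the members' medians differed in sign between doses. At the low and medium doses the medians were −0.19 and −0.21, with 77 and 76 members negative, and at the high dose the median was 0.09 with 53 members positive. The test called 0 members at the low, 2 lower at the medium and 1 higher at the high dose, where it called 1.58, 4.49 and 15.7% of all genes. All 3 libraries lay below all vehicle libraries for 11, 39 and 0 members (background 9.06, 13.3 and 11.1%), and 17, 20 and 5 members had an unadjusted p under 0.05 (13.6, 18.3 and 27.7% of all genes). The member called at the high dose was RPL4, a protein that lines the exit tunnel of the large subunit. RPL4 had 2138, 3126 and 2175 CPM in aconite high libraries, against 2240, 2077 and 2036 CPM in vehicle libraries. Only the second aconite library lay outside the vehicle range. RPL4 averaged 2480 ± 560 CPM with aconite and 2117 ± 108 CPM with vehicle (SD, n = 3 each), a log2 fold change of 0.23 ± 0.08 (SE, edgeR adjusted p = 0.035).

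The sign of the aconite high result rested on that library. Without aconite high 2 the median member was −0.23 against vehicle, and 10 members were called lower (background 16.8%). Without aconite high 1 it was 0.24 with 10 called higher (17.7%), and without aconite high 3 it was 0.21 with 7 called higher (15.8%). Without vehicle 2 or vehicle 3, 0 members were called. Leaving out vehicle 1, aconite high 2 and Banhasasim-tang high 2 together gave a median of −0.10 and 2 members called lower (15.9%): RPLP1 at −0.40 (edgeR adjusted p = 0.048) and RPS19, a small-subunit protein mutated in Diamond-Blackfan anaemia, at −0.33 (edgeR adjusted p = 0.038). RPL4 then stood at 0.07 (edgeR adjusted p = 0.36). Those 3 libraries had been singled out by the members' own levels. Calls of members made without them, here and below, are therefore not separate support. Scaling by total counts in place of TMM moved all genes down alike: their median was then −0.14 and that of the members −0.06, and the members' median lay above that of all genes on both scales.

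Yijung-tang gave medians of −0.23, −0.17 and −0.10 at the low, medium and high dose, with 76, 71 and 62 members negative. A single member was called lower at the low and medium doses and 0 at the high dose, where 1.46, 1.6 and 1.1% of all genes were called. Members below all vehicle libraries numbered 35, 12 and 13 (background 14.1, 13.4 and 10.8%), and those with an unadjusted p under 0.05 numbered 26, 14 and 6 (18.2, 18.5 and 13.5% of all genes). Banhasasim-tang gave −0.26, −0.18 and 0.03, with 77, 74 and 27 members negative. The test called 2 members lower at the low, 1 lower at the medium and 0 at the high dose, against 2.87, 2.9 and 1.19% of all genes. At the low dose all 3 Banhasasim-tang libraries lay below all 3 vehicle libraries for 43 of 77 members, against 14.4% of all genes, and at the medium and high doses for 26 and 0 (background 13.9 and 6.21%). At an unadjusted p under 0.05 there were 40, 12 and 1 members at the low, medium and high dose, against 20, 19.1 and 12.7% of all genes. Without the 3 libraries that stood apart, RPL27 was called higher at the Yijung-tang high dose, in a comparison that called 1.27% of genes.

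Leaving out those 3 libraries brought the medians of the members nearer to 0 in 16 of the 18 comparisons. Citrus then gave −0.11, −0.16 and −0.10 at the low, medium and high dose, cimicifuga −0.11, −0.10 and −0.11, and bupleurum −0.07, −0.16 and −0.08. Aconite gave −0.08 at both lower doses. Yijung-tang gave −0.11, −0.04 and 0.02, and Banhasasim-tang −0.14, −0.06 and −0.07. Vehicle 1 is 1 of only 3 vehicle libraries, and it enters each of these comparisons.

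Most of the members called against vehicle were stalk proteins. RPLP0 anchors the stalk on the large subunit, and dimers of RPLP1 and RPLP2 extend from it. RPLP1 had 935.6, 1048 and 953.3 CPM with Yijung-tang medium and 1018, 911.2 and 906.0 CPM with Yijung-tang low, against 1890, 1410 and 1280 CPM with vehicle. With Banhasasim-tang it had 1033, 919.7 and 942.0 CPM at the medium and 985.9, 806.6 and 1013 CPM at the low dose. With aconite medium it had 1013, 1047 and 1087 CPM. All 15 of these libraries lay below all 3 vehicle libraries, among which vehicle 1 was the highest.

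RPLP1 averaged 935 ± 112 CPM with Banhasasim-tang low and 1527 ± 321 CPM with vehicle (SD, n = 3 each), a log2 fold change of −0.71 ± 0.16 (SE, edgeR adjusted p = 0.011). The change was −0.66 at Banhasasim-tang medium (edgeR adjusted p = 0.018), −0.69 at Yijung-tang low (edgeR adjusted p = 0.022), −0.64 at Yijung-tang medium (edgeR adjusted p = 0.035) and −0.54 at aconite medium (edgeR adjusted p = 0.044). RPLP1 was negative in 18 of 18 comparisons with vehicle, between −0.71 and −0.30, and called in 5. With vehicle 1 alone left out none of these 5 calls held, with edgeR adjusted p between 0.26 and 0.42 and changes of −0.36 to −0.52. With all 3 libraries that stood apart left out, 3 calls held: Banhasasim-tang low at −0.52 (edgeR adjusted p = 0.026), Banhasasim-tang medium at −0.48 (edgeR adjusted p = 0.045) and Yijung-tang low at −0.51 (edgeR adjusted p = 0.048).

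RPLP2 was called once. It had 507.5, 559.5 and 579.1 CPM in aconite medium libraries, against 985.3, 723.0 and 672.0 CPM in vehicle libraries, with no overlap. RPLP2 averaged 549 ± 37.0 CPM with aconite medium and 793 ± 168 CPM with vehicle (SD, n = 3 each), a log2 fold change of −0.53 ± 0.15 (SE, edgeR adjusted p = 0.025). Without vehicle 1 alone it was −0.35 (edgeR adjusted p = 0.34), and without all 3 libraries that stood apart −0.34 (edgeR adjusted p = 0.034). RPLP0 had 1754, 1499 and 1516 CPM with vehicle. It lay below all 3 in 54 of 57 extract libraries, but its log2 fold changes ran only from −0.27 to 0.04 and none was called. RPLP1 lay below all vehicle libraries in 53 of the 57 and RPLP2 in 52. RPL6, which is no stalk protein, did so in 53.

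**Figure D4:**
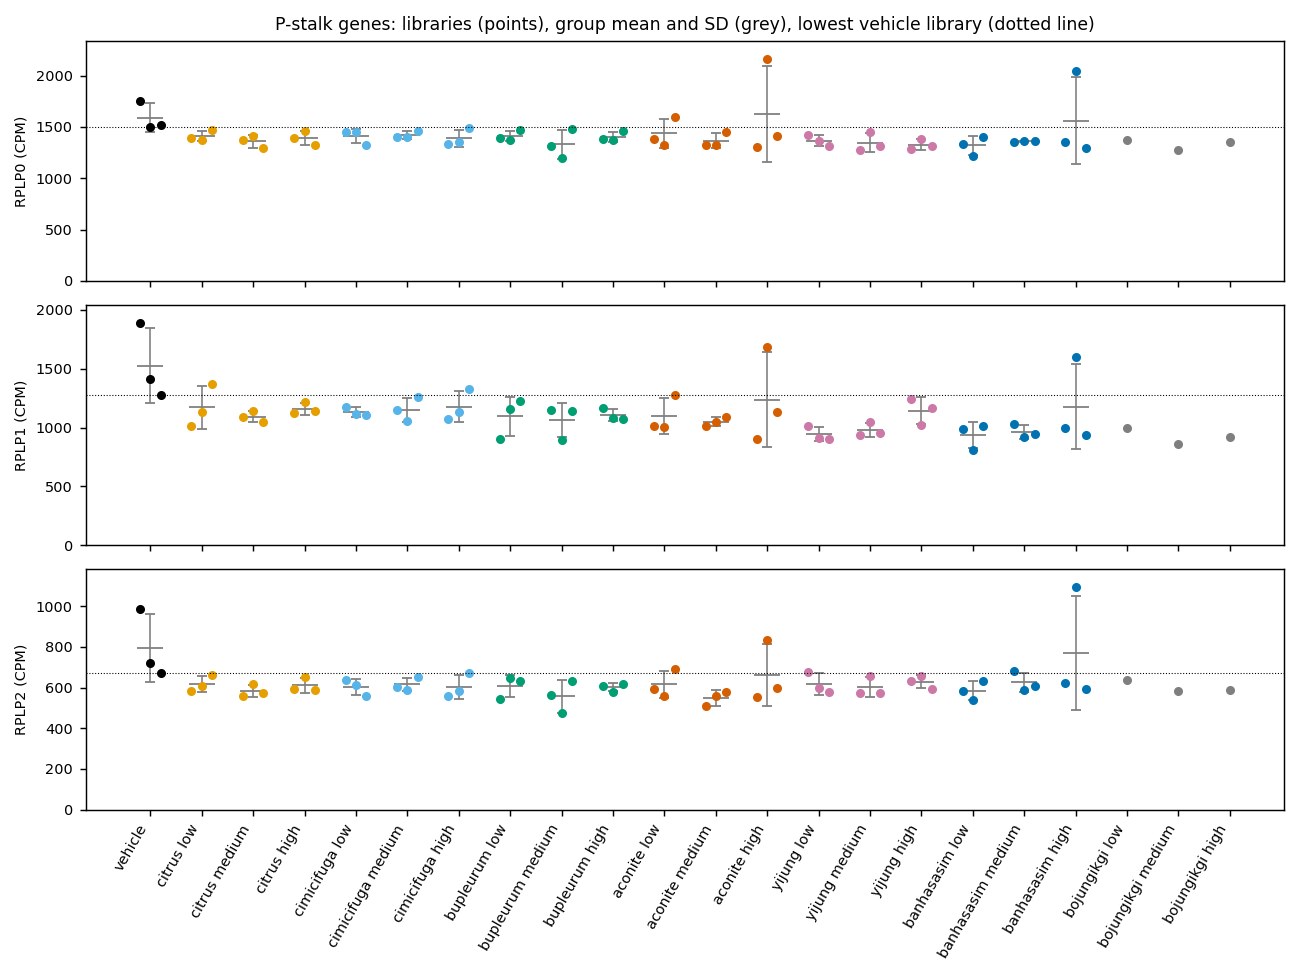
CPM of RPLP0, RPLP1 and RPLP2 in each library (points) with the group mean and SD (grey, n = 3 where shown), the vehicle at the left and doses low to high; the dotted line is the lowest vehicle library. RPLP1 lies below that line in 53 of 57 extract libraries, and the vehicle libraries themselves range from 1280 to 1890 CPM.

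The level of RPLP1 also differed between library sets. Without the libraries that stood apart its range was 1014 to 1371 CPM (median 1133) with citrus and cimicifuga, 894 to 1273 CPM (median 1084) with bupleurum and aconite, 807 to 1243 CPM (median 986) with Yijung-tang and Banhasasim-tang, and 860 to 1000.5 CPM (median 924) with Bojungikgi-tang. RPL27A, another large-subunit protein, ran in a different order: 938 to 1070 CPM with citrus and cimicifuga and 1019 to 1334 CPM with Yijung-tang and Banhasasim-tang. No test was made between sets, since sets and extracts cannot be told apart.

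To ask which members changed relative to the rest of the ribosome, the libraries were also scaled so that the members together had no net shift. On this scale the members' common movement is removed by construction. RPLP1 was called lower in 7 of the 18 comparisons with vehicle: aconite medium and high, Yijung-tang low and medium, and Banhasasim-tang at all doses, with log2 fold changes of −0.32 to −0.46. These comparisons called 1.66 and 4.66, 0.2 and 0.0849, and 2.67, 0.631 and 0.303% of all genes in that order. The most certain was RPLP1 at Banhasasim-tang medium, at −0.46 ± 0.08 (SE, edgeR adjusted p = 0.00044). RPLP2 was called lower with aconite medium (−0.31, edgeR adjusted p = 0.0041) and aconite high (−0.30, edgeR adjusted p = 0.0024). RPS19 was called lower with aconite high (−0.23, edgeR adjusted p = 0.019) and Banhasasim-tang low (−0.22, edgeR adjusted p = 0.047). In the other direction RPL27A was called higher with Yijung-tang low (0.25, edgeR adjusted p = 0.025) and Banhasasim-tang low (0.20, edgeR adjusted p = 0.039). RPL27 was called higher with Yijung-tang high (0.37, edgeR adjusted p = 0.031), where 0.0971% of all genes were called.

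High against low dose was compared within a library set, with no vehicle library. For citrus, cimicifuga and bupleurum the median log2 fold changes of the members were 0.0072, 0.0024 and −0.0090, no member was called, and none had an unadjusted p under 0.05 (5.05, 6.57 and 4.33% of all genes did); DESeq2 also called 0. All genes were called at 0.0667, 0.874 and 0.291%. For Yijung-tang the median was 0.11 with 73 members positive, 0 called (background 0.0849%) and 5 at an unadjusted p under 0.05 (5.7% of all genes); DESeq2 called 0. The 3 high-dose libraries lay above the 3 low-dose libraries for 23 of 77 members, against 8.13% of all genes.

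For Banhasasim-tang the median was 0.31 and all 77 members were positive. None was called by edgeR (background 0.218%), 52 had an unadjusted p under 0.05 (20.4% of all genes), and DESeq2 called 2 (2.2%). All 3 high-dose libraries lay above all 3 low-dose ones for 13 members, against 7.19% of all genes. Banhasasim-tang high 2 carried much of this. With the 3 libraries that stood apart left out the median was 0.06 and 0 members were called (background 0.0358%). Without Banhasasim-tang high 1 instead, 17 members were called higher (4.69%), and without high 3, 46 (17.5%). With no filter on low counts 63 members were called higher (4.24% of every gene with any count, a wider set than in the other shares).

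For aconite the median was 0.26, all 77 members were positive, and 6 were called higher, against 10.8% of all genes. All 6 were large-subunit proteins apart from RPS24. RPL27 had 397.8, 779.1 and 402.1 CPM at the high dose, against 363.4, 380.8 and 384.5 CPM at the low dose. It was the only one of the 6 whose groups did not overlap, and its second high-dose library stood far above the other 5. RPL27 averaged 526 ± 219 CPM at the high and 376 ± 11.3 CPM at the low dose (SD, n = 3 each), a log2 fold change of 0.48 ± 0.14 (SE, edgeR adjusted p = 0.019). RPL26, which sits where the nascent chain leaves the ribosome, had 323.6, 641.5 and 362.0 CPM at the high dose, against 312.5, 297.0 and 343.7 CPM at the low dose, a change of 0.48 ± 0.13 (SE, edgeR adjusted p = 0.016). RPS24 had 769.1, 1284 and 691.3 CPM, against 648.2, 662.8 and 759.2 CPM, a change of 0.41 ± 0.13 (SE, edgeR adjusted p = 0.041).

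The remaining calls had the same shape. RPL4 changed by 0.25 (edgeR adjusted p = 0.029), RPL14 by 0.35 (edgeR adjusted p = 0.035) and RPL22, which also binds a small RNA of Epstein-Barr virus, by 0.30 (edgeR adjusted p = 0.043). In RPL22 the high-dose libraries had 457.7, 775.4 and 489.5 CPM, against 449.9, 466.5 and 483.0 CPM at the low dose. Without aconite high 2 the 6 changes were 0.02 to 0.11 and none was called (edgeR adjusted p from 0.67 to 0.94). Leaving out the 3 libraries that stood apart gave 0 members called, again with 10.8% of all genes called, and the median member was at −0.02. Without aconite low 1 or aconite low 2, 0 were called as well. Without aconite high 1, in contrast, 47 members were called higher (17.6%), and without aconite high 3, 32 (15.9%).

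**Figure D5:**
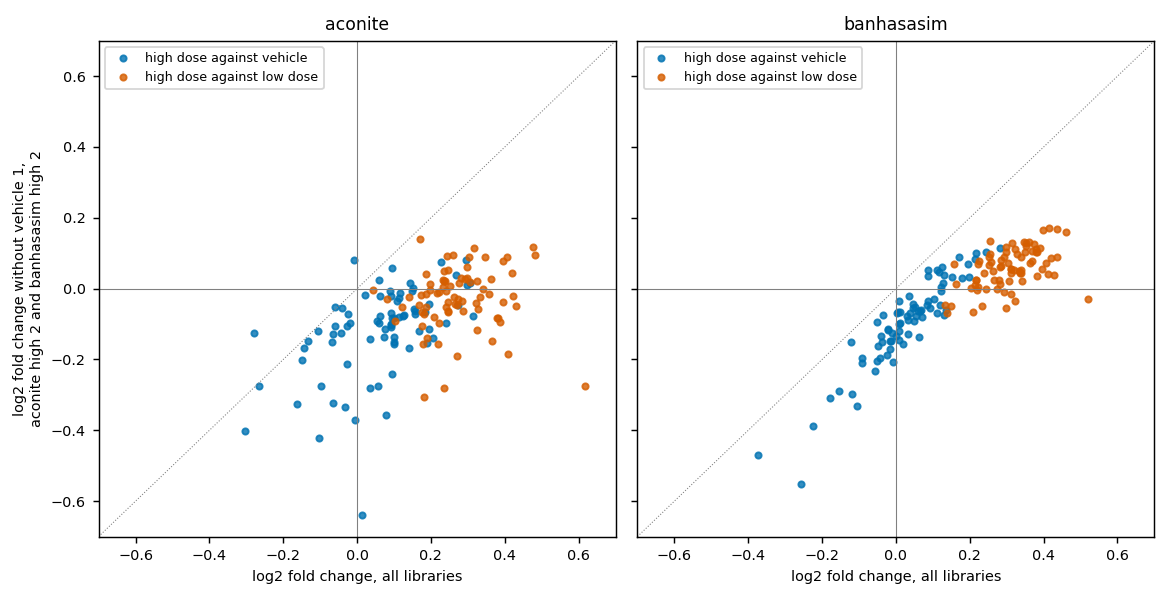
Log2 fold change of each of the 77 members with all libraries (horizontal axis) and without vehicle 1, aconite high 2 and Banhasasim-tang high 2 (vertical axis), for aconite (left) and Banhasasim-tang (right), each at high dose against vehicle and against low dose; the dotted line marks equal values. In high against low dose all members lie right of 0 with all libraries, and without the 3 libraries their medians are −0.02 for aconite and 0.06 for Banhasasim-tang.

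The effect of dose was also compared between the 2 extracts of a set. The difference between aconite and bupleurum had a member median of 0.27 with all 77 positive, and 0 members were called (background 1.74%); 6 had an unadjusted p under 0.05, against 11.8% of all genes. Between Banhasasim-tang and Yijung-tang the median was 0.18, 0 were called (background 0%) and 2 had an unadjusted p under 0.05 (6.33% of all genes). Between cimicifuga and citrus the median was −0.0058, 0 were called (background 0.103%) and 0 had an unadjusted p under 0.05 (4.15% of all genes). DESeq2 called 0 in each of these 3. Without the libraries that stood apart the medians were −0.01, −0.05 and −0.01.

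Bojungikgi-tang, with 1 library a dose, can only be described. On the log2 scale the median member stood at −0.12 at the low, −0.24 at the medium and −0.19 at the high dose relative to the vehicle mean. A ratio of −0.3 or lower was reached by 8, 25 and 14 of the 77 members, against 1.15, 4.76 and 3.37% of the 4450 genes with at least 50 CPM. RPLP1 stood at −0.61, −0.83 and −0.72, RPS29 at −0.64, −0.86 and −0.63, and RPS27A at −0.47, −0.53 and −0.48 at the low, medium and high dose. RPL27A at the low dose was at 0.13, above the vehicle mean.

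Several members have known roles outside the ribosome, and none of those described next was called in any comparison. RPL5 and RPL11 bind MDM2 together with 5S ribosomal RNA when ribosome assembly fails. RPL5 had 589.5, 1205 and 651.6 CPM with aconite high, against 787.4, 667.8 and 680.3 CPM with vehicle, and its changes against vehicle ran from −0.20 to 0.20. RPL11 ran from −0.17 to 0.15. RPS6, the substrate of the S6 kinases below mTOR, had 1270, 1942 and 1317 CPM with aconite high, against 1612, 1307 and 1330 CPM with vehicle, and ran from −0.23 to 0.09. RPS3, which also acts in DNA repair, ran from −0.29 to 0.13, RPSA, first known as a laminin receptor, from −0.26 to 0.15, and RPL13A, which silences translation of inflammatory mRNAs, from −0.28 to 0.06. RPS27A, made as a fusion with ubiquitin, ran from −0.56 to −0.06, was negative in 18 of 18, and lay below all vehicle libraries in 52 of 57 extract libraries. RPS27 was closest to vehicle of all members, with a median change of −0.04 over the 18 comparisons and 11 negative.

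RPS29 had the lowest median change, −0.59, and the widest scatter. Its CPM was 41.27, 181.3 and 55.01 with aconite high, against 119.4, 84.0 and 67.2 with vehicle, and no comparison called it. The spread of each member around the median of all members in a library, as an SD on the log2 scale over 60 libraries, was widest for RPS29 (0.25), RPL39 (0.16), RPL38 (0.16) and RPLP1 (0.15). Among the narrowest were RPS15A (0.044), RPS20 (0.054) and RPL10A (0.055). Over the 60 libraries a member's deviation correlated with the median of the others at 0.59 (RPS2) to 0.97, with a median of 0.89; the 3 libraries that stood apart and shared scaling enter these correlations. RPL36A ran from −0.40 to 0.15 against vehicle and RPL41, the smallest ribosomal protein, from −0.38 to 0.04.

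Of 8 paralogs of members, 5 were expressed enough to be tested. RPL22L1, the paralog of RPL22, had 19.5, 57.6 and 22.6 CPM at the high dose of aconite, against 18.4, 18.7 and 23.8 CPM at the low dose, and was called at 0.67 ± 0.21 (SE, edgeR adjusted p = 0.029). RPL26L1 had 12.8, 25.4 and 14.6 CPM, against 12.1, 11.7 and 14.4 CPM, and was called at 0.43 (edgeR adjusted p = 0.042). In both the second high-dose library set the difference, and neither was called without the 3 libraries that stood apart. RPS27L, a p53 target and paralog of RPS27, then became the only one of the 5 tested paralogs called. It had 45.04, 104.3 and 49.13 CPM with aconite high, against 77.01, 62.49 and 67.96 CPM with vehicle and 62.2, 59.8 and 65.4 CPM at the low dose. Without those libraries its change was −0.46 against vehicle (edgeR adjusted p = 0.00038) and −0.40 against the low dose (edgeR adjusted p = 0.0011). RPL36AL and RPL7L1 were called in neither comparison. RPL39L and RPL10L were listed at 0 in all libraries and RPL3L averaged 0.093 CPM. FAU and RACK1, whose products join the ribosome under names outside the RPL and RPS pattern, were called in no comparison, with a lowest edgeR adjusted p of 0.072, for RACK1 in aconite high against low.

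Other TOP mRNAs were called only in the comparisons of the high dose of aconite. Of 23 genes for translation factors and partners with known TOP mRNAs, 15 of the 16 with a RefSeq start carried the run (93.8%). At the high dose of aconite, 3 of the 23 were called higher against vehicle, where 15.7% of all genes were called; all were initiation factors: EIF3D (0.31, edgeR adjusted p = 0.0012), EIF4A2 (0.30, edgeR adjusted p = 0.0027) and EIF3E (0.30, edgeR adjusted p = 0.025). Against the low dose 7 of the 23 were called higher, a larger share than the 10.8% of all genes, led by NPM1 (0.28, edgeR adjusted p = 0.0086). EIF3D had 132.6, 192.7 and 133.3 CPM with aconite high, against 119.3, 125.0 and 125.3 CPM with vehicle. Leaving out the 3 libraries that stood apart, 1 of the 23 was called against vehicle, EEF2 at 0.21 (edgeR adjusted p = 0.0055), and 0 against the low dose. The list median was 0.13 against vehicle and 0.19 against the low dose with all libraries. No gene of this list was called in any other comparison.

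Some genes for making ribosomes were called at the high dose of aconite with and without those libraries. Of 37 genes for ribosome biogenesis, 10 were called higher and 1 lower against vehicle (background 15.7%), and 15 higher and 0 lower against the low dose (10.8%). UTP4, a factor for the processing of small-subunit RNA, had 128.7, 146.7 and 124.5 CPM with aconite high, against 109.6, 105.3 and 112.3 CPM with vehicle and 112.1, 107.4 and 115.0 CPM at the low dose. Every aconite high library lay above all of these, and the change against vehicle was 0.29 (edgeR adjusted p = 0.00029). POLR1B, a subunit of RNA polymerase I, was called at 0.30 (edgeR adjusted p = 0.0025), TSR1 at 0.26 (edgeR adjusted p = 0.0032) and POLR1E at 0.33 (edgeR adjusted p = 0.0042), and UBTF, which activates RNA polymerase I, was lower at −0.17 (edgeR adjusted p = 0.035). Without the 3 libraries that stood apart 8 were called higher against vehicle (background 15.9%) and 7 against the low dose (10.8%), with none lower, and POLR1B, NOLC1 and UTP4 were among them in both. Elsewhere the list had few calls: NOP2 and NOLC1 higher with aconite medium, and RRP9 lower with Yijung-tang low and medium and Banhasasim-tang medium. Among 7 chaperones and import factors of single ribosomal proteins, BCCIP was called higher with aconite high against vehicle (0.23) and low dose (0.33), PDCD2L higher against the low dose (0.39), neither without the 3 libraries that stood apart, and RRS1 lower with Yijung-tang low (−0.24) and Banhasasim-tang low (−0.23).

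Among 16 genes of the mTOR and MYC pathways that control these mRNAs, DDIT4 and SESN2 changed most at the high dose of aconite. DDIT4, which restrains mTOR complex 1 under stress, had 68.2, 78.5 and 70.8 CPM with aconite high, against 21.0, 19.6 and 20.4 CPM with vehicle and 19.5, 19.5 and 19.7 CPM with aconite low. All 3 high-dose libraries stood far above the rest, aconite high 2 together with the other two. The change of DDIT4 was 1.83 ± 0.08 against vehicle (SE, edgeR adjusted p = 6.2e-23). SESN2, a leucine sensor that also restrains mTOR complex 1, had 29.73, 22.02 and 30.08 CPM with aconite high, against 11.9, 12.3 and 13.9 CPM with vehicle, a change of 1.12 (edgeR adjusted p = 3.9e-11). EIF4EBP1, the repressor of cap-dependent initiation that mTOR phosphorylates, changed by 0.80 (edgeR adjusted p = 4.8e-07). Without the 3 libraries that stood apart these were 1.80, 1.21 and 0.88, and 5 more of the 16 were called higher, among them MYC at 0.20 (edgeR adjusted p = 0.027) and MTOR at 0.18 (edgeR adjusted p = 0.029). The share of all genes called against vehicle in that setting is given above. MTOR, RPTOR, LARP1 and TSC2 were among the 5, with transcript lengths of 6347, 5734, 6595 and 5453 bases. In that setting the median of the 16 was 0.15. The median of the 25 long mRNAs was 0.16, with 9 of them called higher. The part of length in these calls was not tested. Against the low dose 4 were called higher and 2 lower, where 951 of all 16485 tested genes were called higher and 824 lower. MAX, the partner of MYC, was higher (0.22, edgeR adjusted p = 0.035), and EIF4EBP2, a relative of EIF4EBP1, was lower (−0.33, edgeR adjusted p = 0.0025), as was TSC1, which restrains mTOR complex 1 (−0.26, edgeR adjusted p = 0.046). Without the 3 libraries EIF4EBP2 was still called (−0.20, edgeR adjusted p = 0.0073), and MAX and TSC1 were not. The effect of dose differed between aconite and bupleurum for DDIT4 (1.95, edgeR adjusted p = 2.0e-17), SESN2 (1.07, edgeR adjusted p = 3.3e-06) and EIF4EBP1 (0.92, edgeR adjusted p = 0.00015). Outside aconite high, DEPTOR was lower with aconite medium (−0.66) and EIF4EBP1 higher in Banhasasim-tang high against low (0.54).

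The lists of short and long mRNAs, chosen to set beside the members, had few calls with all libraries. Of the short respiratory-chain mRNAs, ATP5MC2 was lower with Yijung-tang low (−0.49). Of the other short mRNAs, S100A10 was lower with cimicifuga high (−0.38), aconite medium (−0.35) and aconite high (−0.39), and S100A6 and S100A11 were lower with Yijung-tang low and Banhasasim-tang low. In citrus medium, where the member median was −0.29, both short lists had medians of −0.32 and −0.28 and the long list 0.17, with no calls in any of them. In Banhasasim-tang low, with a member median of −0.26, these medians were −0.30, −0.29 and 0.21. The 503 non-members of like length moved less, with a median of −0.16 in both comparisons. Of the long list, FLNA was called higher with aconite high (0.39), and CSTB, a short mRNA, was higher in aconite high against low (0.33). Without the 3 libraries that stood apart, aconite high against vehicle gave 9 of 25 long mRNAs called higher, 3 of 36 short respiratory-chain mRNAs lower and 6 of 33 other short mRNAs lower (background 15.9%). Against the low dose these counts were 2, 1 and 1 (10.8%). Both short lists and the members thus had medians of like size in the 2 comparisons given, whereas the non-members of like length had smaller ones, and the part of transcript length in them was not tested beyond a model with a smooth term in length. In that model the member medians against vehicle shrank to between −0.15 and −0.05 in the comparisons that were negative, and RPLP1 was still called with Yijung-tang low and medium and Banhasasim-tang low and medium.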

How the data were processed

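The authors deposited 1 table of RSEM expected counts per gene, on hg38/GRCh38; the submitters' processing notes name STAR 2.7.3a, RSEM 1.3.3, Trim Galore 0.6.5 and FastQC 0.11.9. Per the labels' protocols, total RNA was made into directional mRNA libraries. Whether counting used strand is not given in the sources used here. Of 270 columns, 60 match the labels and 210 were not used. Of the expected counts, 8.68% were not whole and all were rounded.

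Gene symbols came from a table of gene names, transcript lengths from GENCODE 29 and starts from RefSeq on GRCh38.p14, which held 62 of the 77 members. R 4.3.3 with edgeR 4.0.16 (filterByExpr, TMM, robust quasi-likelihood test) was run on 57 libraries in 19 groups, with 16485 genes tested and a coefficient of variation of 8.04% between replicates. CPM in the text is TMM-scaled, and a pseudocount of 1 was added before logs. Depth was 10352646 to 40054980 counts per library. Of the replicate pairs, none agreed within sampling noise. The steps were tested on simulated data.

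Genes are named by rule: the highest, lowest, most and least variable members, up to 4 called per direction and comparison, members with a role that is explained, every paralog, and up to 4 called per direction in the other lists. A count of 5 or fewer called genes may name others. The members and lists were chosen with earlier results of these data known. Same-numbered replicates of the groups compared did not deviate together (a correlation over 0.1 was required in every pair), so no block was used. Alternatives were DESeq2 1.42.0, RLE, total-count and member-based scaling, no filter, a term in length, only the compared groups, a replicate block, a term for RN7SL2, each library left out in turn, and 3 libraries left out. RN7SL2 marked batches in an earlier analysis of these data. It had 4.94 to 9.32 CPM with vehicle and 40.9 to 237 CPM with bupleurum and aconite. Yijung-tang and Banhasasim-tang libraries had 53.5 to 128 CPM, and Bojungikgi-tang libraries 45.3 to 69.8 CPM. Split at 20 CPM, 12 citrus and cimicifuga libraries were low and 6 high, and the term entered only comparisons of these extracts. The lists without those 3 libraries were added after seeing the data. Values of some single genes are not reported here, though they enter the counts and medians.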

Additional observations from a re-analysis of the deposited data

Results flagged for a closer look

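The effect of dose differed between aconite and bupleurum, the pair of extracts in 1 library set, for 3 genes that act on the translation of these mRNAs; no ribosomal protein gene met that test. DDIT4 had 68.21, 78.45 and 70.81 CPM in aconite high against 19.49, 19.53 and 19.70 CPM in aconite low libraries, and 18.81, 16.89 and 17.69 CPM in bupleurum high against 18.56, 19.13 and 17.92 CPM in bupleurum low libraries, a log2 difference of 1.95 (edgeR adjusted p = 2.0e-17). For SESN2 the difference was 1.07 (edgeR adjusted p = 3.3e-06), with 13.82, 13.31 and 13.12 CPM in bupleurum high libraries against 14.99, 12.40 and 14.35 CPM in bupleurum low libraries. For EIF4EBP1 it was 0.92 (edgeR adjusted p = 0.00015), with 31.41, 38.28 and 32.27 CPM in aconite high libraries against 16.94, 17.86 and 16.56 CPM in aconite low libraries. Without vehicle 1, aconite high 2 and Banhasasim-tang high 2 the differences for DDIT4, SESN2 and EIF4EBP1 were 1.89, 1.19 and 0.83.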

How the results depend on the processing

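Counts of members called changed with settings, and so did the sign of some of their medians. Among these were aconite high against vehicle and against the low dose, and Banhasasim-tang high against vehicle. Their medians were positive with all libraries and negative without the 3 libraries that stood apart. No called member reversed under any setting tried. Of 14 called values, 14 held with DESeq2, 14 with RLE scaling, 14 with no filter, 13 with a replicate block, 12 with a length term, 6 with total-count and 6 with member-based scaling, 4 without the 3 libraries that stood apart, and 2 in fits of only the compared groups. RLE scaling changed no count, nor did a term for RN7SL2 in the citrus and cimicifuga comparisons where it was fitted. Of 180 counts with 1 library left out 141, and of 252 others 195, stayed within 1.5 times. In what follows doses run low, medium, high, and the cause of each shift was not tested. The share of all genes called also changed between settings. Where no such share stands beside a count, the count alone does not set the members apart from all genes.

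With no filter on low counts the members called were 21, 46 and 25 for citrus, 23, 20 and 24 for cimicifuga, 19, 45 and 21 for bupleurum, 22, 29 and 11 for aconite, 46, 21 and 2 for Banhasasim-tang and 32, 17 and 8 for Yijung-tang, in comparisons that called 0.678 to 6.26% of all genes. High against low gave 53 for aconite, 7 for Yijung-tang and 63 for Banhasasim-tang (5.72, 0.519 and 4.24% of all genes), and the differences between extracts 12 for aconite and bupleurum and 4 for Banhasasim-tang and Yijung-tang (1.28 and 0.488%). Shares without the filter are over every gene with any count, so they are no like background for the abundant members. In fits of only the compared groups the members called were 1 for bupleurum high, 0 for aconite high, 0 for Yijung-tang medium and low, 1 for Banhasasim-tang low, and, for high against low, 0 for aconite and 2 for Yijung-tang. No share of all genes is given beside these counts, so they do not set the members apart. DESeq2 gave 2 for bupleurum medium, 3 for Yijung-tang low, 5 for Banhasasim-tang low and 2 for Banhasasim-tang high against low, where it called 2.38, 5, 6.82 and 2.2% of all genes. The length term gave 1 for bupleurum medium, 12 for aconite high, 1 for aconite medium, 1 for Yijung-tang high, 3 for Yijung-tang low, 1 for Banhasasim-tang low and 12 for aconite high against low; it called 19.1 and 12.9% of all genes in the 2 aconite high comparisons.

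Scaling to the members gave 3 for aconite high, 1 for Yijung-tang high, 2 for Yijung-tang low, 1 for Banhasasim-tang high and 0 for aconite high against low. The shares of all genes called in these comparisons with vehicle are given above. Total-count scaling gave 4 for aconite high (464 higher and 3160 lower of all genes, against 1396 and 1184 with TMM), 1 for Banhasasim-tang low and 0 for aconite high against low. The replicate block, whose numbers do not pair the samples, gave 1 for Banhasasim-tang low and changed no other count past 1.5 times. Without the 3 libraries that stood apart the counts were 2 for aconite high, 1 for aconite medium, 1 for Yijung-tang high, 0 for Yijung-tang medium, 1 for Banhasasim-tang low, 0 for aconite and 1 for Yijung-tang in high against low.

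With 1 library left out in turn the counts ranged from 0 to 1 for bupleurum medium, 0 to 4 for aconite medium, 0 to 10 for aconite high, 0 to 3 for Yijung-tang low, 0 to 1 for Yijung-tang medium, 0 to 6 for Banhasasim-tang low, 0 to 1 for Banhasasim-tang medium and 0 to 1 for Banhasasim-tang high. For high against low they ranged from 0 to 47 for aconite and 0 to 46 for Banhasasim-tang, and for the difference between aconite and bupleurum from 0 to 2. The shares of all genes beside the 47 and the 46 are given above with those comparisons. Among Bojungikgi-tang libraries a limit of 0.5 in place of 0.3 left 2, 5 and 2 members, and leaving out each vehicle library gave 3 to 18, 7 to 41 and 3 to 29. For these Bojungikgi-tang counts the share of all genes was not computed.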
